A study of Mus musculus with 8 samples.

Results

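Long heavy-chain CDR3 clonotypes are the immunoglobulin heavy-chain junctions of 16 or more amino acids that were read from the RNA of mouse bone marrow pro-B cells. A clonotype is a distinct CDR3 nucleotide sequence within a sample, and it was complete when its translation began with C and ended with W, both counted in the length. Of 3882 complete clonotypes in 8 samples, 747 were long, 578 in controls and 169 in knockouts, and 3135 were shorter, at 15 or fewer amino acids. The choice used length alone.

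The groups were 4 control and 4 Setd2 knockout samples of primary pro-B cells (B220+Cd43+IgM-CD25-) from mice of 8 weeks, with no treatment. Setd2 encodes the enzyme that trimethylates a lysine of histone H3 along transcribed genes. The alleles, any Cre driver and the animal behind each replicate number are not given in the sources used here. The p-values therefore set differences against the spread among these 8 samples, part of which may be technical. The tables hold immunoglobulin sequences only, so neither the loss of Setd2 nor the surface markers of the sort could be checked on them. Among long clonotypes, 158 of 747 were joined to a switched constant region, a mark of B cells later than the pro-B stage. The gene was IGHA for 152 and IGHG for 6. IGHM, the unswitched constant region, was listed for 0 long clonotypes, so the rest are not shown to be unswitched.

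The heavy-chain CDR3 is the loop that joins a V, a D and a J segment, and it is the most variable part of an antibody. In pro-B cells the RAG recombinase first joins D to J and then V to DJ. Nucleases trim the segment ends, and terminal transferase adds bases that no gene encodes. Length thus varies with the segments used, the trimming and the added bases, and long, charged loops are known as a feature of some self-reactive receptors. JH and D segments differ in length and in the codons they carry, and tyrosine, an aromatic residue frequent in antigen contacts, is encoded by several of them.

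The 4 JH genes are shown because they differ in how many bases reach up to the conserved tryptophan codon. The sequences run 5′ to 3′ and end with that codon, and capitals mark tyrosine codons in the frame read.
IGHJ1: cTACtggTACttcgatgtctgg
IGHJ2: acTACtttgacTACtgg
IGHJ3: cctggtttgctTACtgg
IGHJ4: atTACTATgctatggacTACtgg
IGHJ4 gives up to 23 bases and 3 tyrosine codons, and IGHJ1 gives 22 bases and 2. IGHJ2 and IGHJ3 give 17 bases each, with 2 tyrosine codons and 1. All lie on the minus strand of chromosome 12 of mm10, from chr12:113429781-113429833 for the exon of IGHJ1 through chr12:113429468-113429515 for IGHJ2 and chr12:113429085-113429132 for IGHJ3 to chr12:113428514-113428567 for IGHJ4. The 3 D segments that follow were the most frequent single best matches among long clonotypes, with Ighd1-1 in 284, Ighd2-4 in 74 and Ighd2-8 in 62. Ighd2-5 and Ighd2-6 share the same sequence, so neither can be a single best match, and clonotypes that match them best are not in this ranking. Capitals again mark tyrosine codons in the reading frame richest in them.
Ighd1-1: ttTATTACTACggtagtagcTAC
Ighd2-4: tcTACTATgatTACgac
Ighd2-8: tcTACTATggtaacTAC
Ighd1-1, at chr12:113482170-113482192, holds 23 bases and 4 tyrosine codons.

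The long clonotype with the most reads in each sample is shown next. Reads here are CDR3-spanning reads, the deposited expression score times the CDR3 length in bases, with lengths under 48 set to 48. The product came out whole for every complete clonotype. The sources used here do not define the score, so taking the product as a number of reads is an inference. Capitals mark the longest stretch identical to a D segment over 8 or more bases. Lower-case letters before and after it are V-encoded, J-encoded or added bases, or D-encoded bases outside that stretch.
control 1: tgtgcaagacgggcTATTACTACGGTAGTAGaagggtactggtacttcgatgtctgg
control 2: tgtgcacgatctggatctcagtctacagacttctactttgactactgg
control 3: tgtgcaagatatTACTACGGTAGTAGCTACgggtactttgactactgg
control 4: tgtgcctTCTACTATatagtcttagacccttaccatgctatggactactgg
knockout 1: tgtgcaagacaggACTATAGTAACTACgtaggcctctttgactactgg
knockout 2: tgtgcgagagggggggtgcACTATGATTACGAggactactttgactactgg
knockout 3: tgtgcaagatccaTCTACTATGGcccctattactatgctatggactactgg
knockout 4: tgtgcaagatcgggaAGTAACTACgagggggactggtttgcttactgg
The control 2 sequence held no such D match. In controls these clonotypes had 12, 27, 12 and 14 reads. In knockouts they had 36, 26, 5 and 203 reads. Only the knockout 4 sequence held over 5% of its sample's CDR3-spanning reads, at 16.5%. The control 3 sequence had the highest tyrosine share among control clonotypes, with 6 tyrosines, and 18 of its 48 bases came from Ighd1-1. The knockout 3 sequence, also with 6 tyrosines, was the most tyrosine-rich of the knockouts and ended in all 23 bases of IGHJ4.

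Heavy-chain locus reads, the depth known here, were 64488 to 89908 per control and 12102 to 100600 per knockout. CDR3-spanning reads of complete clonotypes numbered 2030, 2324, 1633 and 2100 in controls 1 to 4. They numbered 837, 826, 120 and 1227 in knockouts 1 to 4. Knockout 3 was the shallowest sample, with 9 long clonotypes, and its shares rest on 6 long clonotypes with a listed JH gene and 4 with a VH family.

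The first comparison asked whether the knockout samples held fewer long clonotypes, or a different share of them. Long clonotypes numbered 152, 148, 128 and 150 in controls 1 to 4. In knockouts 1 to 4 they numbered 56, 60, 9 and 44. The groups did not overlap, and the geometric mean of controls was 4.24 times that of knockouts (log2 difference -2.09, two-sided exact permutation p = 0.0286, Benjamini-Hochberg 0.343 over 12 readouts). That p is the smallest that 4 against 4 samples allow, and fewer cells and less heavy-chain RNA per cell cannot be told apart in bulk RNA. Clonotypes of any length showed a gap of the same kind, with shorter ones at 537 to 703 per control and 64 to 188 per knockout. With replicate numbers as pairs the exact p was 0.125, the smallest that 4 pairs allow. Per 1000000 heavy-chain locus reads the geometric means were 1819 and 834 long clonotypes, a smaller log2 difference of -1.12 (exact permutation p = 0.0286). With 120 CDR3-spanning reads drawn from every sample the geometric means were 22.004 and 17.6 long clonotypes (log2 difference -0.32, exact permutation p = 0.514).

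As a share of complete clonotypes, long ones made up 17.8% (95% exact Clopper-Pearson interval 15.3 to 20.5), 18.05% (15.47 to 20.9), 19.2% (16.3 to 22.5) and 18.7% (16.1 to 21.6) in controls 1 to 4. In knockouts 1 to 4 the share was 28.9% (22.6 to 35.8), 24.2% (18.999 to 30.02), 12.3% (5.80 to 22.1) and 19.5% (14.5 to 25.2). The intervals cover counting error only. The control shares lay close together, and the knockout shares lay on both sides of them. Group means were 18.5% ± 0.665 and 21.2% ± 7.06 (SD, n = 4 each), and the difference of 2.76 points had an exact permutation p of 0.457 (Benjamini-Hochberg 0.971). Without knockout 1 the difference was 0.213 points, without knockout 3 it was 5.73 points, and with the minimum length set at 15 it turned to -0.38 points.

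**Figure D1:**
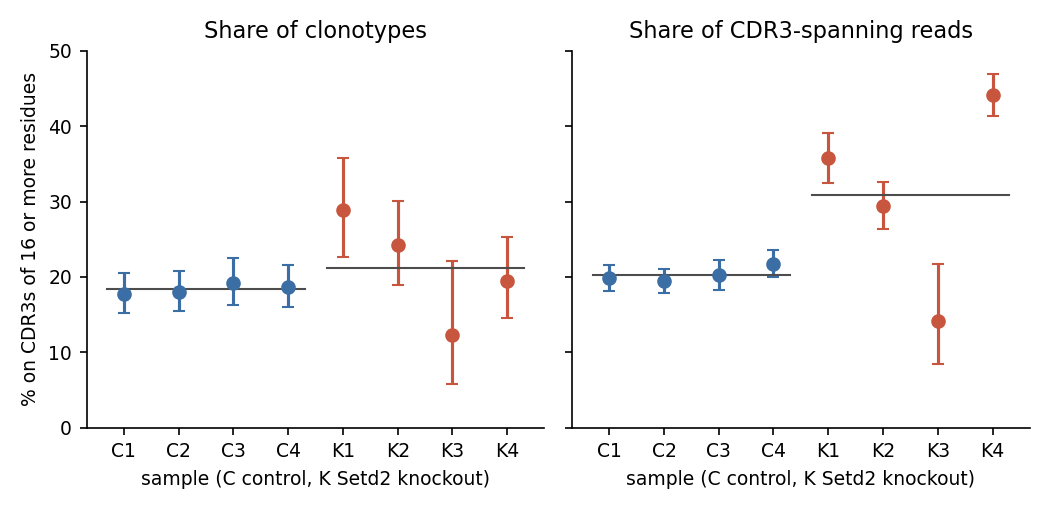
Percent of complete heavy-chain clonotypes with a CDR3 of 16 or more amino acids, and percent of CDR3-spanning reads on them, for each of the 4 control and 4 Setd2 knockout samples; points are samples, error bars are exact 95% intervals for counting error and horizontal lines are group means. The control shares lie between 17.8% and 19.2%, and the knockout shares between 12.3% and 28.9%.

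Weighted by RNA, long clonotypes held 19.9%, 19.4%, 20.2% and 21.7% of CDR3-spanning reads in controls. They held 35.7%, 29.4%, 14.2% and 44.1% in knockouts. Knockouts 1, 2 and 4 were above every control and knockout 3 was below every control. The means were 20.3% ± 0.989 and 30.8% ± 12.6 (SD, n = 4 each), a difference of 10.5 points that did not pass (exact permutation p = 0.143, Benjamini-Hochberg 0.857). With the largest clonotype of knockout 4 and its 2 neighbours of 1 base left out, a choice made after seeing its size, the difference was 6.15 points. It was 6.13 points without knockout 4 and 16.1 points without knockout 3.

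Length itself, the basis of the choice, is given as a description. Of the long clonotypes, 325 had 16 amino acids, 230 had 17, 126 had 18 and 66 had 19 or more. Just inside the limit, clonotypes of 16 amino acids numbered 70, 73, 49 and 66 in controls and 26, 15, 3 and 23 in knockouts. Just outside it, those of 15 amino acids numbered 119, 122, 79 and 118 in controls and 23, 13, 12 and 21 in knockouts. Clonotypes of 15 amino acids thus outnumbered those of 16 in every control, and in knockout 3 but in no other knockout. Long CDR3s averaged 16.96 ± 0.150 amino acids per control and 17.2 ± 0.523 per knockout (SD, n = 4 each).

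**Figure D2:**
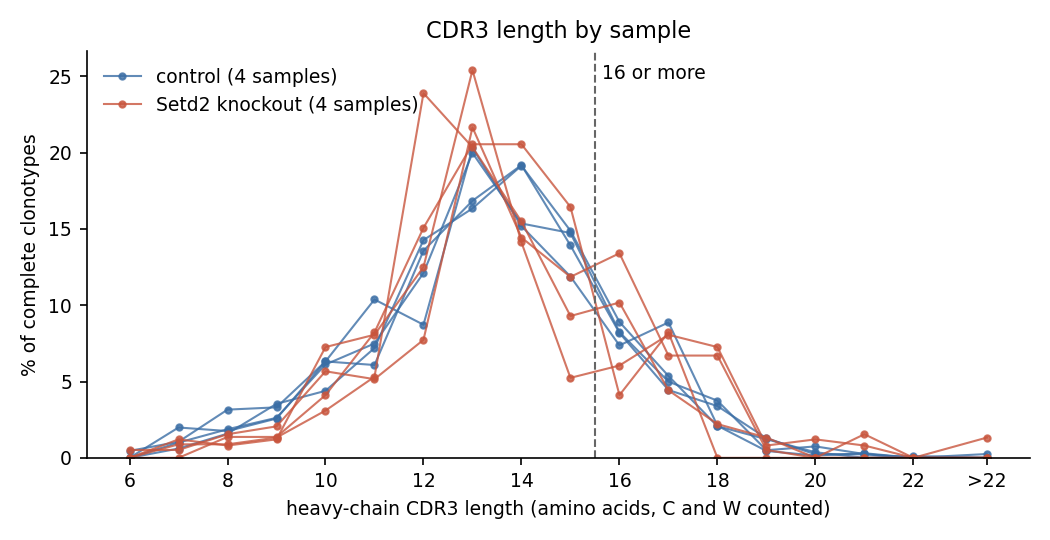
Percent of complete clonotypes at each CDR3 length in amino acids, with 1 line per sample for the 4 controls and the 4 knockouts; the dashed line marks the limit of 16. Pooled over samples, 507 clonotypes lie just outside the limit, at 15 amino acids, and 325 just inside it, at 16.

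The longest clonotypes are shown because each holds a second stretch of VH sequence inside the CDR3, with capitals again for D-encoded bases.
longest of controls: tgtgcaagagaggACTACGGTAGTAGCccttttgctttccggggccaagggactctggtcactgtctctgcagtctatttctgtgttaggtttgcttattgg
longest of knockouts: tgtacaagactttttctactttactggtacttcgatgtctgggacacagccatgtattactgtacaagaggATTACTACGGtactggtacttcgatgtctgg
The first came from control 4, with 34 amino acids and 7 reads, and the second from knockout 4, with 34 amino acids and 11 reads. Both encode inside the loop the residues that normally end a VH gene (YFC or YYC), and both hold a stretch of 20 bases of a VH gene there. Of the 747 long clonotypes 6 had both features, 3 in control 4 and 3 in knockout 4. The knockout sequence also holds the end of IGHJ1 both inside the loop and at its last bases. Reads were of 75 bases, so no single read spans a CDR3 of this size. The read numbers of these clonotypes therefore cannot count reads across the whole CDR3. Whether these are junctions of single cells or joined contigs was not tested.

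Next, CDR3-spanning reads per clonotype were compared, as a measure of RNA from each clone. In controls 1 to 4 a long clonotype had on average 2.65, 3.05, 2.58 and 3.04 reads. In knockouts 1 to 4 it had 5.34, 4.05, 1.89 and 12.3 reads. Again 3 knockouts were above every control and knockout 3 was below, and the 1.68-fold higher geometric mean of knockouts (log2 difference 0.75) had an exact permutation p of 0.286 (Benjamini-Hochberg 0.971). The log2 difference was 0.29 without knockout 4 and 1.19 without knockout 3.

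Shorter clonotypes had 2.31, 2.79, 2.43 and 2.53 reads on average in controls and 3.90, 3.10, 1.61 and 3.77 in knockouts. Long clonotypes had more than shorter ones in 8 of 8 samples, by 1.35-fold (log2 0.43 ± 0.53, SD, n = 8; exact sign-flip permutation p = 0.0078, the smallest that 8 samples allow, Benjamini-Hochberg 0.0234 over 9 readouts). If these reads need only overlap the CDR3, a longer one can be met by more of them, and if they must span it, by fewer. The sources used here do not say which holds. Per CDR3 base, a scaling meant for overlapping reads only, the log2 ratio was -0.0049, with long clonotypes higher in 2 of 8 samples (exact permutation p = 1). Without knockout 4 the log2 ratio by reads was 0.25, higher in long clonotypes in all 7 samples left (exact permutation p = 0.0156). The long-to-shorter log2 ratio was 0.17 ± 0.08 in controls and 0.69 ± 0.68 in knockouts (SD, n = 4 each), a difference of 0.52 (exact permutation p = 0.0571, Benjamini-Hochberg 0.386). The difference passed per CDR3 base (0.55), with sequences 1 base apart merged (0.57) and with 2 or more reads required (0.54), each at an exact permutation p of 0.0286 that was not adjusted, and without knockout 4 it was 0.19.

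Knockout 4 held the long clonotype with the most reads of all samples. That sequence, printed above, had 203 reads with IGHJ3 and the switched constant region IGHA in knockout 4, and the same 48 bases had 1 read in control 4. A sequence with A15G, counted from 1 at the first base of the CDR3, had 62 reads and the same protein sequence. Another with G4C had 29 reads and a changed second residue. In knockout 4, 38.6% of long and 26.4% of shorter clonotypes carried a switched constant region, the highest shares of the 4 knockouts, and the part of later B cells in its values was not tested.

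Over all samples, the share of long clonotypes with a switched constant region was 14.5%, 25.7%, 35.9% and 10% in controls 1 to 4. It was 16.1%, 18.3%, 0% and 38.6% in knockouts 1 to 4. For shorter clonotypes it lay between 12.1% and 25.4% in controls and between 1.56% and 26.4% in knockouts, and the groups overlapped in both classes. With clonotypes that list a switched constant region left out, the share of CDR3-spanning reads on long clonotypes was higher in knockouts by 7.25 points. This did not pass (exact permutation p = 0.229), and the long clonotypes that remain are not shown to be unswitched.

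Only 4 of 743 distinct long sequences were found in more than 1 sample, against 34 of 3846 distinct complete sequences of any length. Of these 4, a pair is shown, the first because no base of it fell outside a V, D or J match.
shared by controls 1 and 3: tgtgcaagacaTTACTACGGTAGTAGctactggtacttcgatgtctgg
shared by control 3 and knockout 3: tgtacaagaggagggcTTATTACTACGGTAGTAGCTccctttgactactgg
The first had 1 read in control 1 and 1 in control 3, and its last 22 bases are the whole of IGHJ1. The second had 3 reads in control 3 and 1 in knockout 3, and holds 20 bases of Ighd1-1. The others were the most-read sequence of knockout 4, which had 1 read in control 4, and a sequence with 1 read in control 3 and 1 in knockout 3. All but the first printed sequence were thus shared by a control and a knockout of the same replicate number. The source of this sharing was not tested.

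The JH genes of long clonotypes were then compared, as the segments that give the end of the loop. A single JH gene was listed for 497 of 747 long and 2385 of 3135 shorter clonotypes. IGHJ4, the JH gene with the most bases before the tryptophan codon, was listed for 35.6%, 42.9%, 17.9% and 43.3% of long clonotypes in controls 1 to 4. In knockouts 1 to 4 it was listed for 37.3%, 34.0%, 66.7% and 21.2%. The ranges overlapped, with control 3 and knockout 4 low and knockout 3 high. Long clonotypes used IGHJ4 more than the shorter ones of the same sample in 7 of 8 samples, by 13.8 points ± 11.99 (SD, n = 8; exact sign-flip permutation p = 0.0156, Benjamini-Hochberg 0.0281). Control 3 was the exception at -2.34 points. When JH was taken from a match of the last 15 bases of the CDR3, a choice made after seeing how many genes were not listed, the difference was 7.52 points in 6 of 8 samples and did not pass (exact permutation p = 0.0625). That match found a gene for 714 of 747 long clonotypes, but for only 794 of 1231 clonotypes of 12 or fewer amino acids, so it leaves out more of the shorter ones. Long clonotypes were chosen by length, and a JH gene with more bases adds to length. The direction of the JH differences between long and shorter clonotypes, here and below, is therefore partly set by the choice. Their p-values do not test a use of JH genes apart from length.

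IGHJ2, one of the JH genes with fewest bases before the tryptophan codon, was listed for 33.7%, 27.5%, 50% and 34.4% of long clonotypes in controls and 35.3%, 29.8%, 33.3% and 21.2% in knockouts. It was used less by long than by shorter clonotypes in 6 of 8 samples, by -11.1 points ± 12.3 (SD, n = 8; exact sign-flip permutation p = 0.0391, Benjamini-Hochberg 0.0586). With 1 sample left out this passed in 2 of 8 cases (exact permutation p from 0.0312 to 0.0781), and it did not pass by the match of the last bases (-8.81 points, exact permutation p = 0.0859) or for 18 or more amino acids (-17.3 points, exact permutation p = 0.109). IGHJ3, of the same number of bases, stood at 11.9%, 15.4%, 14.1% and 11.1% in controls and 11.8%, 8.51%, 0% and 30.3% in knockouts. IGHJ3 was lower in long clonotypes of 7 samples and higher in knockout 4, and its difference of -8.32 points had an exact permutation p of 0.0625. Without knockout 4 it was -11.1 points and passed (exact permutation p = 0.0156). It also passed with limits of 15 or 18 amino acids, with sequences 1 base apart merged, with 2 or more reads required, and with switched clonotypes or the largest clonotype of knockout 4 left out, at -7.13 to -12.3 points (exact permutation p from 0.0078 to 0.0469). The IGHJ1 share lay between 11.1% and 18.8% in controls and between 0% and 27.7% in knockouts, and its difference from shorter clonotypes was 5.60 points (exact permutation p = 0.164). The IGHJ1 difference passed without knockout 3 (8.60 points, exact permutation p = 0.0156), by the match of the last bases (6.65 points, exact permutation p = 0.0391) and with a limit of 15 amino acids (8.20 points, exact permutation p = 0.0078).

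None of the 4 JH shares of long clonotypes passed between genotypes. The knockout minus control differences were 2.12 points for IGHJ1, -6.49 for IGHJ2, -0.475 for IGHJ3 and 4.85 for IGHJ4, with exact permutation p from 0.4 to 0.971. The direction turned for IGHJ1, IGHJ3 and IGHJ4 when single samples were left out.

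**Figure D3:**
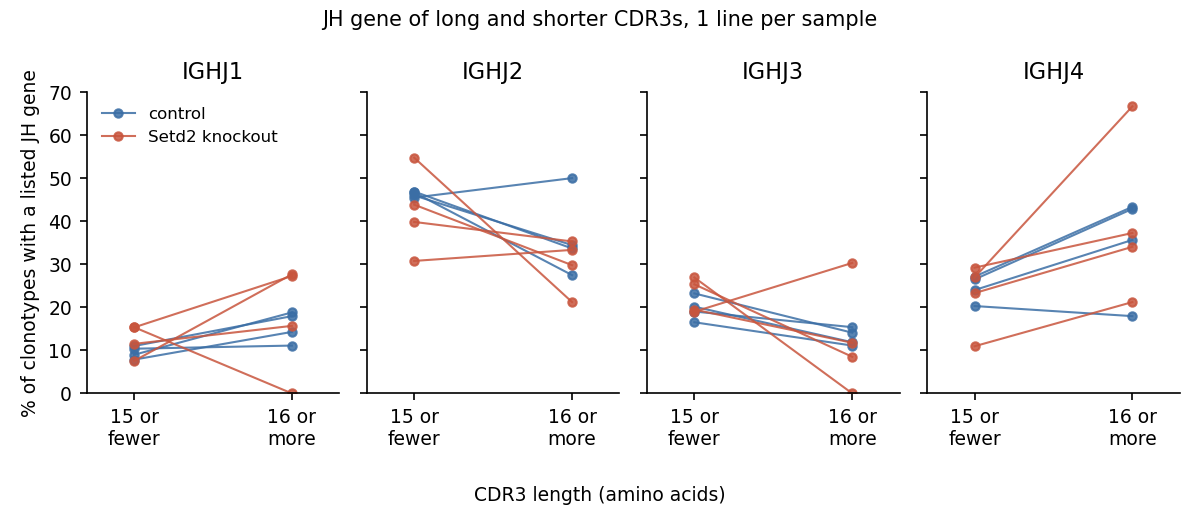
Percent of clonotypes that list each of IGHJ1 to IGHJ4, for long clonotypes and for the shorter ones of the same sample, with a line joining the pair of each sample and colours for control and knockout. IGHJ4 rises from shorter to long in 7 of 8 samples, and IGHJ2 falls in 6 of 8.

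Pooled over samples, IGHJ4 was listed for 23.7% of clonotypes of 12 or fewer amino acids, 26.7% of those of 15, 34.8% of those of 16 and 37.6% of those of 18 or more. IGHJ1 ran from 5.68% at 12 or fewer to 21.99% at 18 or more, and IGHJ3 from 21.2% to 9.22% over the same classes. These shares describe the pooled clonotypes, and samples with more clonotypes weigh more in them.

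VH genes give the first bases of the loop. A VH family could be read for 470 of 747 long clonotypes, and family 1, the large distal family, held 347 of them, followed by family 5 with 45, family 9 with 32 and family 2 with 23. Proximal VH families lie near the D segments and are here families 2 and 5, while distal families are 1 and 8. Distal families made up 78.3%, 73.1%, 74.7% and 76.3% of long clonotypes in controls and 59.5%, 75.6%, 100% and 80.0% in knockouts. Proximal families made up 17.4%, 15.1%, 8.00% and 16.1% in controls and 24.3%, 7.32%, 0% and 14.3% in knockouts. Neither share separated the genotypes, with differences of 3.17 points (exact permutation p = 0.657) and -2.66 points (exact permutation p = 0.6). The knockouts spread on both sides of the controls for both shares.

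Long clonotypes used distal families more than shorter ones in 7 of 8 samples, by 7.24 points ± 12.2 (SD, n = 8; exact sign-flip permutation p = 0.0156, Benjamini-Hochberg 0.0281). Without knockout 3 the difference was 3.10 points, and for clonotypes of 18 or more amino acids it turned to -11.0 points (exact permutation p = 0.0625). Weighted by CDR3-spanning reads the difference was 0.466 points (exact permutation p = 0.93), and it did not pass either with a minimum of 15 amino acids, with 2 or more reads required or with switched constant regions left out, where exact permutation p lay between 0.0547 and 0.719. The proximal share differed by -2.06 points between long and shorter clonotypes (exact permutation p = 0.664). Listed V genes include near-identical paralogs, so single V genes are uncertain, and families were used for that reason.

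Where the extra bases of a long CDR3 lie was described by dividing each sequence into V-encoded, D-encoded, J-encoded and other bases. Long CDR3s had 51.3 bases on average and shorter ones 38.0, a gap of 13.3 bases that the choice by length fixes. Of it, 5.76 bases matched a D segment, 4.15 were other bases, 3.05 matched the JH end and 0.345 the VH end. D-encoded bases numbered 10.9 ± 1.11 in long and 5.10 ± 0.484 in shorter CDR3s (SD, n = 8 samples). Other bases, which include added ones and unmatched germline ones, numbered 14.1 in long and 9.96 in shorter CDR3s. A D segment was found in 84.1% of long and 46.7% of shorter clonotypes, and a longer middle part makes a match of 8 bases easier to find. No test was made of these parts, since their sum is set by the choice.

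**Figure D4:**
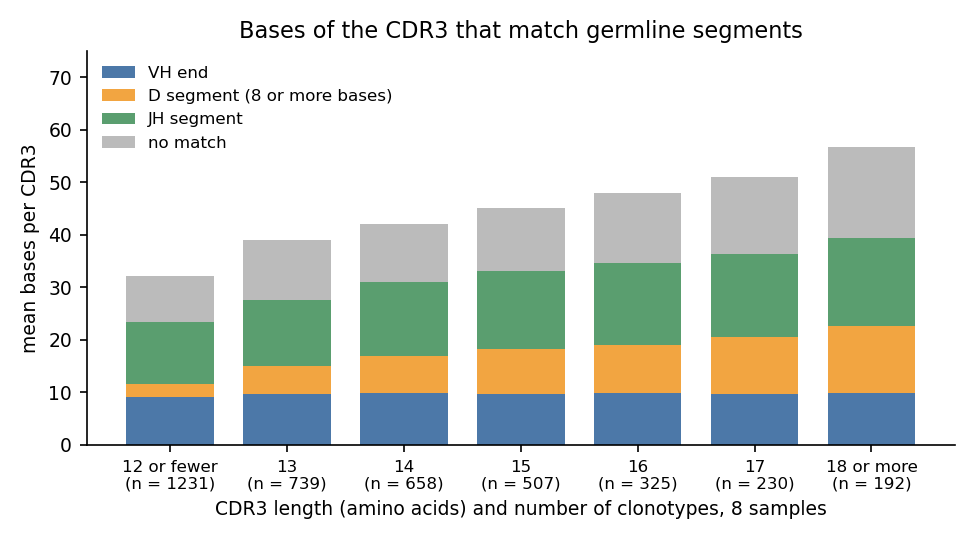
Stacked bars of the mean number of CDR3 bases (vertical axis) that match a VH end, a D segment, a JH segment or none of them, by CDR3 length in amino acids, pooled over the clonotypes of all 8 samples. D-encoded bases average 2.36 at 12 or fewer amino acids and 12.7 at 18 or more, unmatched bases 8.76 and 17.4, and VH-encoded bases 9.20 and 9.90.

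Among clonotypes with a D segment, family 1, here Ighd1-1, made up 46.8% of long and 38.4% of shorter ones, as means over samples. Family 2 made up 48.1% and 45.2%. Family 4, the short segment Ighd4-1 with 11 bases, made up 2.63% of long and 12.4% of shorter ones and was lower among the long in 8 of 8 samples. The reading frame rich in tyrosine was used by 79.0% of long and 72.4% of shorter clonotypes with a D segment, and was higher in 6 of 8 samples.

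Residues between the first C and the last W were compared last. Tyrosine made up 22.95%, 22.6%, 20.7% and 23.4% of the residues of long CDR3s in controls 1 to 4. In knockouts 1 to 4 it made up 22.4%, 23.4%, 24.2% and 20.3%. The groups overlapped and differed by 0.161 points (exact permutation p = 0.886). In shorter CDR3s tyrosine made up 18.3%, 19.1%, 17.98% and 18.3% in controls and 20.1%, 17.4%, 19.8% and 18.3% in knockouts. Every sample had more tyrosine in long than in shorter CDR3s, by 3.84 points ± 1.45 (SD, n = 8; exact sign-flip permutation p = 0.0078, Benjamini-Hochberg 0.0234), or 3.39 against 1.99 tyrosines per CDR3. Weighted by CDR3-spanning reads it was 3.65 points in 7 of 8 samples (exact permutation p = 0.0547).

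Charged residues (D, E, K and R) made up 21.3%, 22.1%, 20.9% and 21.6% of the residues of long CDR3s in controls and 18.9%, 22.9%, 21.2% and 22.3% in knockouts. The genotypes differed by -0.137 points (exact permutation p = 0.914). In shorter CDR3s the charged share was 24.4%, 24.8%, 24.7% and 24.4% in controls and 23.3%, 25.1%, 22.6% and 25.6% in knockouts. It was lower in long than in shorter CDR3s in 8 of 8 samples, by -2.95 points ± 0.927 (SD, n = 8; exact sign-flip permutation p = 0.0078, Benjamini-Hochberg 0.0234). As a number per CDR3 it was higher in long ones, at 3.24 against 2.60. Pooled over samples, the charged share was 25.8% at 12 or fewer amino acids, 24.9% at 13, 24.5% at 14, 22.1% at 15 and 21.8% at 16. Clonotypes of 15 amino acids, counted as shorter, were thus close to those of 16. Leaving out the first 2 residues after C, usually A and R from the VH gene, gave -2.27 points for charge and 3.01 points for tyrosine.

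The loops with the most charged residues in each group, acidic and basic counted together, are shown as the extremes of this count.
most charged of controls: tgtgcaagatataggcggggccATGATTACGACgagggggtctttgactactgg
most charged of knockouts: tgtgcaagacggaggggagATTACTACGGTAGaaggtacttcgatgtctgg
Each had 7 charged residues, 4 acidic and 3 basic in the sequence from control 2 and 2 acidic and 5 basic in the one from knockout 1. They had 6 and 19 reads, and the reactivity of neither was measured.

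Among other residues, the alanine share was lower in long CDR3s in 8 of 8 samples, by -1.67 points, and the arginine share in 8 of 8, by -1.72 points. The first 2 residues after C, usually A and R, make up a smaller part of a longer loop. Numbers of alanine and arginine per CDR3 were not computed. Methionine, which IGHJ4 encodes before its last tyrosine, was higher in 8 of 8 samples, by 0.754 points. Phenylalanine was lower in 7 of 8, by -1.39 points. Internal cysteines were found in 23 of 747 long clonotypes, and 1 clonotype of control 2, with 2 reads, held 2 of them.

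**Figure D5:**
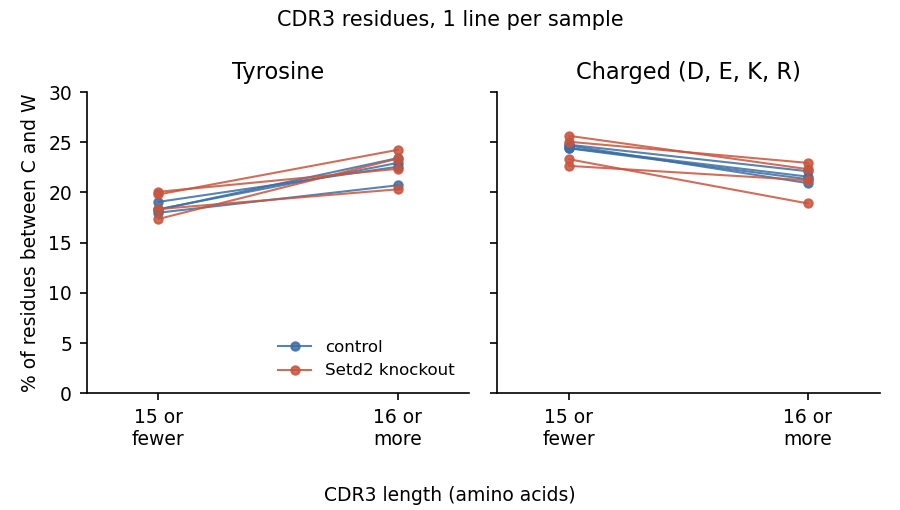
Percent of CDR3 residues between the first C and the last W that are tyrosine and that are charged (D, E, K, R), for long and shorter clonotypes of the same sample, joined by a line, with colours for control and knockout. Tyrosine is higher and the charged share lower in long CDR3s in 8 of 8 samples.

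The difference between genotypes in the long-to-shorter change was tested for all 9 of these readouts. None passed, with the lowest exact permutation p at 0.0571 for reads per clonotype and 0.0857 for the proximal VH share. For tyrosine the change was 3.996 points ± 1.09 in controls and 3.68 ± 1.91 in knockouts, and for charge it was -3.08 ± 0.480 and -2.82 ± 1.31 (SD, n = 4 each). A p that misses the threshold does not show that the genotypes act alike.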

How the data were processed

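Poly-A selected RNA of 4 control and 4 Setd2 knockout pro-B samples was sequenced with 75-base single-end reads, per the labels' protocols. The submitters' processing notes name STAR 2.5.1 and mm10. The repertoire algorithm was TRUST, per the series design text, with the version not given in the sources used here. Contig and segment read counts were used as deposited by the authors, without normalization. The clonal expression score, per the file headers an estimate, was multiplied by the CDR3 length in bases, with lengths under 48 set to 48. The product, called CDR3-spanning reads here, was whole within 0.01 in 100% of complete clonotypes. The library size in the files, taken as deposited, is the number of reads on the heavy-chain locus. Light chains and the transcriptome were not analysed here.

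Each distinct CDR3 nucleotide sequence of a sample was 1 clonotype. JH was used where 1 gene was listed, and the VH family where all listed genes shared it. VH ends (107 of 113 transcripts), D and JH segments came from GENCODE M21. A V end was the longest exact match from the CDR3 start, a JH end the longest exact match to its end, and a D segment the longest exact match of at least 8 bases in between. Control and knockout means were compared by two-sided exact permutation over 70 arrangements, long and shorter clonotypes by a two-sided exact sign-flip test over 256 patterns, with Benjamini-Hochberg values within each family of readouts. A difference passed at an unadjusted p under 0.05. Counts and ratios were tested as log2. Tests were run on simulated data first.

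Members, lists and tests were chosen with earlier results of these data known. Clonotypes were named by a rule: most reads per sample, and per group the longest, the highest tyrosine share, the most charged residues and the most reads with 2 or more internal cysteines, and all sequences found in 2 or more samples. Deviations of V gene reads from the group means correlated between samples of the same replicate number at 0.231, 0.211, 0.148 and 0.183 over 98 V genes. Replicate numbers were also used as pairs. The correlations were not set against those of differently numbered samples, so they do not show that equal numbers mark pairs. Alternatives were each replicate left out, the pairs, length limits of 15 and 18, merging of sequences 1 base apart, at least 2 reads, switched constant regions left out, weighting by reads, equal reads, scaling by locus reads, residues left out at the loop's end, and 6 more that were chosen after seeing the data. Python 3.11.15, numpy 2.4.6, pandas 2.3.3, scipy 1.17.1 and matplotlib 3.10.9 were used.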

Additional observations from a re-analysis of the deposited data

Results flagged for a closer look

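In 4 of 42 groups of 4 samples 1 sample lay far from the others by Dixon's test, and chance flags about 1 in 20 groups. The log2 number of long clonotypes was 7 in control 3, with the other controls at 7.21 to 7.25. The log2 number was 3.17 in knockout 3, with the other knockouts at 5.46 to 5.91, and knockout 3 had 12102 locus reads, the fewest of the 8 samples. IGHJ4 was more frequent in long than in shorter clonotypes of knockout 3 by 39.7 points, with the other knockouts at 8.05 to 10.8, and this value rests on 6 long clonotypes with a listed JH gene. The log2 ratio of reads per long clonotype to reads per shorter clonotype was 1.71 in knockout 4, with the other knockouts at 0.23 to 0.45.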

How the results depend on the processing

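Of 530 alternative values, 429 kept their direction and side of the threshold, 63 changed direction, 25 no longer passed and 13 newly passed. Where no cause is named below, the cause was not tested.

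The number of long clonotypes (log2 -2.09) had an exact permutation p of 0.125 with the replicate block at the same -2.09, the smallest 4 pairs allow. It was -0.985 for 18 or more amino acids (7 samples, since knockout 3 had none) and -0.319 at equal reads. With single samples left out it ran from -2.36 to -1.45, where fewer samples allow no p under 0.0571. No other genotype comparison had passed, so the block had no other call to end.

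Knockout minus control among long clonotypes, in points, changed direction as follows. With a minimum of 15 amino acids the long share was -0.381, IGHJ3 0.964, proximal VH 2.39 and distal VH -4.14. With 18, proximal VH was 5.59 and distal VH -9.74. Weighted by reads, IGHJ3 was 5.87, proximal VH 2.52, distal VH -4.63 and charge 0.323. Without switched constant regions IGHJ2 was 3.35 and IGHJ4 -0.720. By JH match IGHJ1 was -1.45, IGHJ2 1.36, IGHJ3 1.69 and IGHJ4 -1.60. IGHJ3 was 0.503 without internal YYC or YFC, and charge 0.0245 without the first 2 residues. With single samples left out, IGHJ1 ran from -1.22 to 8.00, IGHJ3 from -6.36 to 3.74, IGHJ4 from -4.11 to 11.04, proximal VH from -6.94 to 1.17, distal VH from -3.91 to 9.61, tyrosine from -0.404 to 0.913 and charge from -0.670 to 0.676.

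Long minus shorter changed as follows, with the calls that IGHJ1, IGHJ2, IGHJ3, IGHJ4 and distal VH gained or lost given with their results. With 18 or more amino acids proximal VH was 6.29 and distal VH -11.0 points. Weighted by reads, proximal VH was 2.34 and tyrosine 3.65, which no longer passed. The log2 read ratio per CDR3 base was -0.0049. With single samples left out proximal VH ran from -3.10 to 0.690.

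The genotype difference in long minus shorter changed direction with 15 amino acids for IGHJ1 (0.780), and with 18 for IGHJ1 (26.3), proximal VH (0.429), distal VH (-5.36), tyrosine (1.37) and charge (-0.506). Weighted by reads IGHJ3 was 3.54 and distal VH -0.575. Without switched constant regions IGHJ2 was 4.66 and charge -0.592. By JH match IGHJ2 was 7.85 and IGHJ4 -4.31. Tyrosine was 3.54 with 2 or more reads and 0.865 without the last 8 residues, where charge was -2.22 and shorter CDR3s keep few residues, and charge was -0.114 with merged sequences. With single samples left out, IGHJ1 ran from -5.74 to 6.09, IGHJ2 from -7.51 to 4.52, IGHJ3 from -10.5 to 2.21, IGHJ4 from -0.787 to 9.78, tyrosine from -1.10 to 0.252 and charge from -0.194 to 0.795.

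Knockout 3, with 120 CDR3-spanning reads and 9 long clonotypes, gives wide intervals. CDR3s of more than 75 bases cannot be held by a single read, and how well long ones are assembled was not tested.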
